A study of Mus musculus with 10 samples.

Results

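Transcript levels of 8 genes of the complement system, C1qa, C1qb, C1qc, C3, C3ar1, C5ar1, Cfb and Cfp, were followed across 10 RNA sequencing libraries of sorted mouse cells. The genes were chosen by name from the 17603 genes that had a value, and all 8 were measured. The cells came from wild-type female C3H/HeN mice injected with SCC7, a squamous carcinoma line of mouse origin that stands in for head and neck cancer here. They were sorted by flow cytometry as a population the labels call EPC, which is left unspelled there. The groups were tumor CD45+ EPC (n = 4), splenic CD45+ EPC (n = 3) and splenic CD45- EPC (n = 3). CD45 is the surface phosphatase of white blood cells. The 3 groups share strain, sex and SCC7 injection, none is from mice without a tumor, and neither the age of the mice nor whether a library pools animals is given in the sources used here.

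Complement is a protein cascade that marks microbes, immune complexes and dying cells and recruits phagocytes to them. The classical pathway starts with C1q, a hexamer of units built from the A, B and C chains, and C1q is unusual among complement proteins in being made mostly by macrophages and dendritic cells and not by the liver. The alternative pathway is driven by factor B (Cfb) and held together by properdin (Cfp), and both pathways meet at C3, whose cleavage gives the opsonin C3b and the anaphylatoxin C3a. C3a and C5a act on myeloid cells through the receptors C3ar1 and C5ar1.

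The 3 C1q chain genes lie side by side on chromosome 4 of GRCm38.p6. C1qb (Entrez gene 12260) lies at chr4:136880126-136886200, C1qc (12262) at chr4:136889801-136892936 and C1qa (12259) at chr4:136895916-136898844, which is 18719 bases from end to end, with 3600 and 2979 bases between neighbours. C3 (12266) lies at chr17:57203967-57228136, and Cfb (14962) lies on the same chromosome at chr17:34856374-34862514, 87 bases from C2. C3ar1 (12267) is at chr6:122847140-122856157, C5ar1 (12273) at chr7:16246743-16259540 and Cfp (18636) at chrX:20925454-20931555. Promoter sequence from RefSeq (GRCm38.p6) was found for 6 of the 8 genes, C1qb, C1qc, C3, C3ar1, C5ar1 and Cfp. It is printed for the neighbours C1qb and C1qc, whose levels moved together, and for C3, which moved the other way between tumor and spleen. Each line gives the 250 bases before the start that the RefSeq promoter table uses, all from the minus strand, at chr4:136886201-136886450 for C1qb, chr4:136892915-136893164 for C1qc and chr17:57228137-57228386 for C3. For C1qc that start leaves 22 of the 250 bases inside the gene span given above, and for C5ar1 202. Capitals mark matches to GAGGAA, the core bound by PU.1 and other ETS factors, in the C1q promoters (as TTCCTC where it lies on the other strand), and matches to TTNNGNAA, a degenerate C/EBP-type element, in the C3 promoter.
C1qb: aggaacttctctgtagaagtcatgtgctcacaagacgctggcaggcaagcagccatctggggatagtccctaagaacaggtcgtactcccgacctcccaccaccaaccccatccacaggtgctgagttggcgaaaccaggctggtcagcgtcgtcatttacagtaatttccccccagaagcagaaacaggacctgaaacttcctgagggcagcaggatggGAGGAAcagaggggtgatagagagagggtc
C1qc: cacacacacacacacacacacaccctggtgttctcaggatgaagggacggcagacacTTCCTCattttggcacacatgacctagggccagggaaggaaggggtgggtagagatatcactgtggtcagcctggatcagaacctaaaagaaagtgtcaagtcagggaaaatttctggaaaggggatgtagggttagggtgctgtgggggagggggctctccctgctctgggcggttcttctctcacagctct
C3: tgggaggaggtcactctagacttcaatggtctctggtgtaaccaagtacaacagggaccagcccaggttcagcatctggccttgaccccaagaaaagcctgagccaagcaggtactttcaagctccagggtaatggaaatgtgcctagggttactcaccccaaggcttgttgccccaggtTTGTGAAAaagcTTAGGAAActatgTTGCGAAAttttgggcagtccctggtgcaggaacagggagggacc
C1qb held GAGGAA at -30 to -25 from the start and C1qc held it on the other strand at -193 to -188. Of 32817 mouse promoters of this length in the same table, 23.3% hold GAGGAA on either strand. C3 held TTNNGNAA at -70 to -63, -58 to -51 and -45 to -38, the last of these on both strands. That element is in 36.8% of the promoters, and C1qc and C5ar1 also held it, at -81 to -74 and -157 to -150. TATAAA, searched on both strands and present in 12.4% of promoters, was found in C3ar1 alone of the 6, and an ETS-IRF composite element, present in 2.30%, in none. These letters are matches in a window, not sites shown to be bound.

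The values are taken to be FPKM, fragments scaled by transcript length and by mapped depth, and levels of different genes are set side by side on that scale. The steps between the lowest values correspond to a depth of some 17600000 to 20700000 fragments in each library. Globin transcripts took 1.80% to 10.4% of the summed FPKM in tumor CD45+ libraries, 29.3% to 52.1% in splenic CD45+ libraries and 62.5% to 63.5% in splenic CD45- libraries. Tumor replicates 2, 3 and 4 lay far closer to each other than the libraries of any other pair within a group. Their squared differences were a median of 1.57 to 3.86 times the counting variance, against 32.8 to 37.3 times for pairs with tumor replicate 1, 38.7 to 212 times among splenic CD45+ libraries and 7.21 to 16.3 times among splenic CD45- libraries. Splenic CD45+ replicate 2 stood apart in its group. Ptprc, the CD45 transcript, followed the gate, with 59.4 to 92.5 FPKM in tumor CD45+, 39.2 to 265 FPKM in splenic CD45+ and 1.63 to 2.57 FPKM in splenic CD45- libraries. Nothing in the labels says that replicates are separate mice, so p-values reflect only how these samples vary, and that variation may be technical. In libraries of sorted bulk cells, fewer cells of a type and less RNA per cell cannot be told apart.

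The comparison of tumor CD45+ with splenic CD45+ cells asks how the same gate differs between tumor and spleen. Of the 8 genes 7 were higher in tumor CD45+ cells, with ratios of the group means from 6.70 for C5ar1 to 697 for C3ar1, and C3 was lower. All 8 passed the threshold, an adjusted p below 0.05 by limma on log2(FPKM + 1), and for none did the libraries of both groups overlap. Read against this, 37.7% of the 11463 tested genes were called higher and 38.4% had every tumor library above every splenic one. Called lower were 26% and without overlap on that side 28.1%. The median log2 change was 5.50 over the 8 genes and 0.20 over all tested genes. Scaling to a common sum moved that overall median to 0.44 and scaling without globin genes to -0.20. The split of called genes, 4327 higher to 2986 lower, then became 4665 to 1975 and 2981 to 4271. The 8 calls and their directions were kept under these and all other settings tried.

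**Figure D1:**
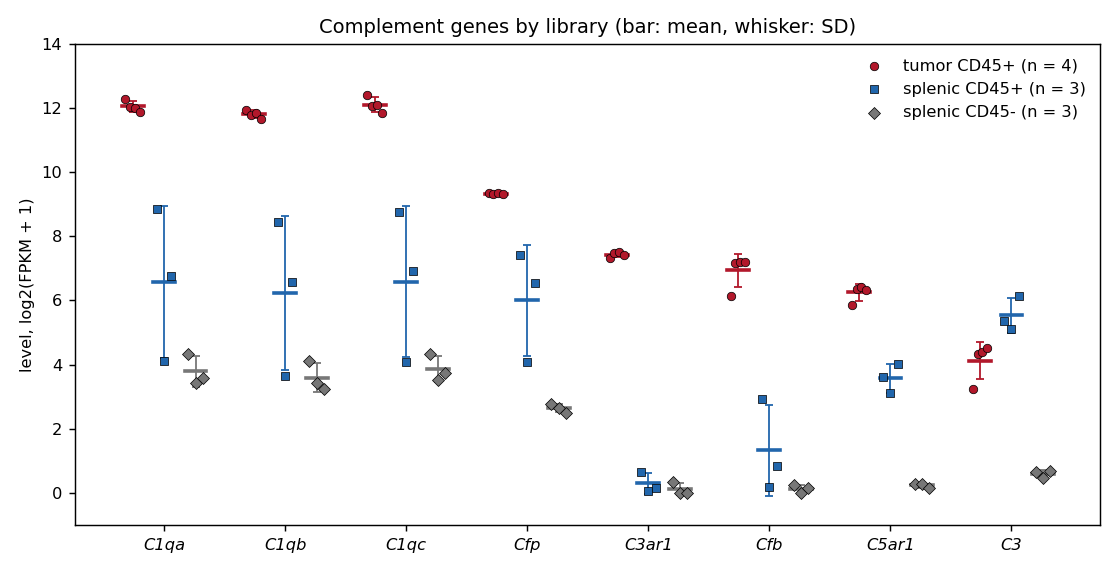
Level of each complement gene in each library as log2(FPKM + 1), with tumor CD45+ libraries in red (n = 4), splenic CD45+ in blue (n = 3) and splenic CD45- in grey (n = 3), horizontal bars at group means and whiskers of 1 SD. Tumor libraries sit above splenic CD45+ libraries for every gene except C3, where they sit between the splenic groups, and the C1q chains, Cfp and Cfb spread widely among splenic CD45+ libraries.

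The C1q chains were the most abundant of the 8 genes in tumor CD45+ cells. C1qa, the A chain, had 5025, 4195, 4101 and 3805 FPKM in tumor CD45+ libraries and 461, 16.4 and 108 FPKM in splenic CD45+ libraries. Every tumor library was above every splenic one, the lowest tumor value being 8.26 times the highest splenic value, while splenic replicates 1 and 2 lay 28.1-fold apart. Its mean of 4281 ± 523 FPKM (SD, n = 4) in tumor stood against 195 ± 234 FPKM (SD, n = 3) in spleen, a log2 change of 5.48 ± 0.93 (SE, adjusted p = 1.38e-03 by limma).

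C1qb, the B chain, had 3918, 3530, 3718 and 3225 FPKM in tumor CD45+ libraries and 348, 11.6 and 95.4 FPKM in splenic CD45+ libraries. C1qc, the C chain, had 5432, 4316, 4367 and 3662 FPKM in tumor CD45+ libraries and 434, 15.9 and 120 FPKM in splenic CD45+ libraries. Among the splenic libraries both had the order of C1qa, with replicate 1 high and replicate 2 low, and no tumor library overlapped them. Their log2 changes were 5.58 ± 0.95 and 5.52 ± 0.93 (SE), with adjusted p-values of 1.36e-03 and 1.32e-03 by limma. The size of these changes hung on which splenic library was counted. Without splenic CD45+ replicate 1 they were 6.61 for C1qa, 6.69 for C1qb and 6.61 for C1qc, and without replicate 2 they were 4.25, 4.29 and 4.26, past the threshold each time.

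The alternative pathway genes of the list, Cfb and Cfp, were also higher in tumor. Cfb, the serine protease of the C3 convertase, had 69.6, 144, 147 and 147 FPKM in tumor CD45+ libraries and 6.60, 0.14 and 0.80 FPKM in splenic CD45+ libraries. Tumor replicate 1 was the lowest tumor library and still 10.6-fold above the highest splenic one. The log2 change was 5.61 ± 0.62 (SE, adjusted p = 1.48e-04 by limma), and 6.42 without splenic replicate 1. The table lists both curated Cfb models again as numbered copies with equal values in every library, so its summed level counts these copies too, and further numbered copies of 1 of them were at 0 throughout. With copies left out the log2 change was 5.08.

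Cfp, properdin, which stabilises the alternative convertase, had 654, 644, 650.1 and 632 FPKM in tumor CD45+ libraries and 169, 15.8 and 92.2 FPKM in splenic CD45+ libraries. The highest tumor library was 1.03 times the lowest, the closest spacing of the 8 genes, while splenic replicate 1 was 10.7 times replicate 2. Cfp averaged 645 ± 9.37 FPKM (SD, n = 4) in tumor and 92.4 ± 76.7 FPKM (SD, n = 3) in spleen. The log2 change of 3.33 ± 0.68 (SE, adjusted p = 3.48e-03 by limma) became 4.03 without splenic replicate 1 and 2.36 without replicate 2.

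The C3a receptor gave the widest gap. C3ar1 had 159.8, 177, 180 and 171 FPKM in tumor CD45+ libraries and 0.58, 0.05 and 0.11 FPKM in splenic CD45+ libraries. The splenic values rest on about 44, 4 and 8 fragments, so the gene was near the floor there, and it passed the filter on low values through the tumor libraries alone. The lowest tumor library was 276 times the highest splenic one, and the log2 change was 7.14 ± 0.18 (SE, adjusted p = 1.19e-07 by limma). The pseudocount of 1 holds this change down.

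C5ar1, the C5a receptor of neutrophils and macrophages, had 57.6, 81.5, 85.4 and 79.6 FPKM in tumor CD45+ libraries and 11.1, 7.65 and 15.2 FPKM in splenic CD45+ libraries. Unlike C3ar1 it was plainly present in both groups, and its splenic libraries lay closer together than those of the C1q chains. The log2 change was 2.67 ± 0.25 (SE, adjusted p = 5.55e-05 by limma). The ratio of C5ar1 to C3ar1 was 0.360 to 0.475 in tumor CD45+ libraries and 19.2 to 153 in splenic CD45+ libraries, so the receptor with the higher level was C3ar1 in every tumor library and C5ar1 in every splenic CD45+ library.

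C3, the protein at which the pathways meet, was the gene that went down. C3 had 8.52, 19.3, 19.9 and 22.1 FPKM in tumor CD45+ libraries and 40.2, 33.5 and 69.9 FPKM in splenic CD45+ libraries. Every tumor library was below every splenic one, but by less than for the other genes, the highest tumor value being 0.659 times the lowest splenic value. Its mean was 17.4 ± 6.06 FPKM (SD, n = 4) in tumor and 47.9 ± 19.4 FPKM (SD, n = 3) in spleen. The log2 change was -1.41 ± 0.37 (SE, adjusted p = 0.0109 by limma), and it ranged from -1.63 to -1.11 when each library was left out in turn. Counting tumor replicates 2 to 4 as 1 averaged library, a setting chosen after their closeness was seen, gave -1.71 (adjusted p = 0.0327 by limma). Under the same setting C1qa was at 5.56 (adjusted p = 0.0170 by limma) and Cfp at 3.34 (adjusted p = 0.0327 by limma).

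**Figure D2:**
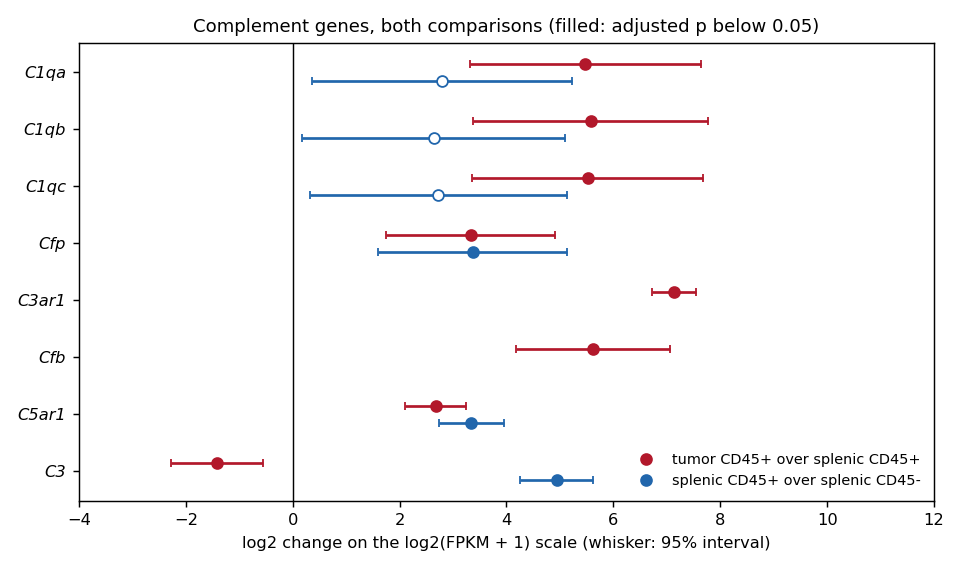
Log2 change of each complement gene on the log2(FPKM + 1) scale, tumor CD45+ over splenic CD45+ in red and splenic CD45+ over splenic CD45- in blue, with 95% intervals from limma and filled points for an adjusted p below 0.05. In tumor over spleen all genes lie right of 0 except C3 at -1.41, and within the spleen the C1q chains are open points with wide intervals, and C3ar1 and Cfb have no point because they were under the filter.

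C3 was carried by 2 transcript models, a curated and a predicted one. The predicted model took 47.9%, 33.7%, 39.5% and 43.2% of C3 FPKM in tumor CD45+ libraries and 2.11%, 10.1% and 13.98% in splenic CD45+ libraries. The groups did not overlap, with means of 41.1% ± 5.997 (SD, n = 4) in tumor and 8.72% ± 6.05 (SD, n = 3) in spleen, and a two-sided exact permutation test gave p = 0.0571, the smallest that 4 against 3 libraries allow. Counted on the curated model alone, C3 had 4.44, 12.8, 12.02 and 12.5 FPKM in tumor and 39.4, 30.1 and 60.2 FPKM in spleen. C5ar1 has a second curated model, which had 15.8, 11.1, 10.2 and 10.3 FPKM in tumor CD45+ libraries and 2.64, 0 and 0 FPKM in splenic CD45+ libraries. C1qc had a predicted second model at 4.67% to 5.25% of its tumor FPKM.

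The comparison within the spleen sets CD45+ against CD45- cells of the same organ. C3, C5ar1 and Cfp were higher in splenic CD45+ cells, the 3 C1q chains did not pass the threshold, and C3ar1 and Cfb stayed under the filter of 1 FPKM in at least 3 libraries. For comparison, 50.5% of the 9728 genes tested were called higher and 5.02% lower. Every splenic CD45+ library was above every CD45- one for 59% of the genes and below for 7.24%. The median log2 change was 3.07 over the 6 genes tested and 0.67 over all genes. Scaling moved the overall median to 0.13 (trimmed mean), -0.0024 (median ratio), 1.00 (common sum) and 0.45 (without globin genes). The split of 4912 genes called higher to 488 lower became 3156 to 1735 with trimmed-mean scaling and 2821 to 2448 with median-ratio scaling. The 3 calls among the complement genes were kept under both.

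C3 had 40.2, 33.5 and 69.9 FPKM in splenic CD45+ libraries and 0.56, 0.39 and 0.60 FPKM in splenic CD45- libraries. Its log2 change was 4.94 ± 0.29 (SE, adjusted p = 2.84e-04 by limma). C5ar1 had 11.1, 7.65 and 15.2 FPKM in splenic CD45+ libraries and 0.22, 0.21 and 0.10 FPKM in splenic CD45- libraries, a log2 change of 3.34 ± 0.26 (SE, adjusted p = 4.87e-04 by limma). Both genes were under 1 FPKM in every CD45- library and so passed the filter through the CD45+ libraries alone. Cfp had 169, 15.8 and 92.2 FPKM in splenic CD45+ libraries and 5.82, 5.24 and 4.68 FPKM in splenic CD45- libraries. It was present in all 6 libraries without overlap, and its log2 change of 3.37 ± 0.76 (SE, adjusted p = 7.68e-03 by limma) became 2.67 without CD45+ replicate 1 and 4.34 without replicate 2.

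For the C1q chains the splenic groups overlapped, because CD45+ replicate 2 lay among the CD45- libraries. C1qa had 461, 16.4 and 108 FPKM in splenic CD45+ libraries and 19.2, 9.85 and 10.99 FPKM in splenic CD45- libraries. C1qb had 348, 11.6 and 95.4 FPKM in CD45+ libraries and 16.4, 9.68 and 8.52 FPKM in CD45- libraries, and C1qc had 434, 15.9 and 120 FPKM in CD45+ libraries and 19.0, 10.5 and 12.4 FPKM in CD45- libraries. The log2 changes were 2.79, 2.64 and 2.73, with adjusted p-values of 0.0524, 0.0671 and 0.0553 by limma and a 95% interval of 0.37 to 5.22 for C1qa. Without CD45+ replicate 2 they were 4.03, 3.92 and 3.98, with adjusted p-values of 7.64e-05, 4.94e-05 and 3.85e-05 by limma. Without CD45+ replicate 1 they were 1.66, 1.53 and 1.64.

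C3ar1 had 0.58, 0.05 and 0.11 FPKM in splenic CD45+ libraries and 0.26, 0 and 0 FPKM in splenic CD45- libraries, and the groups overlapped. Cfb had 6.60, 0.14 and 0.80 FPKM in CD45+ libraries and 0.18, 0 and 0.10 FPKM in CD45- libraries, also with overlap. Tumor CD45+ and splenic CD45- libraries differ in both tissue and gate and were not tested. For all 8 genes every tumor library was above every splenic CD45- one, with ratios of means from 33.8 for C3 to 1983 for C3ar1. The share of all genes separated in this way was not determined, so this count cannot be read as particular to these genes. The order of the group means was tumor CD45+, splenic CD45+, splenic CD45- for every gene except C3, whose order was splenic CD45+, tumor CD45+, splenic CD45-. The lower pair in that order overlapped for the C1q chains, C3ar1 and Cfb.

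While the C1q level ranged widely, its chains kept close to one ratio. The summed C1q FPKM was 14375, 12040, 12186 and 10691 in tumor CD45+ libraries, 1243, 43.9 and 324 in splenic CD45+ libraries and 54.6, 30.04 and 31.9 in splenic CD45- libraries. This was 1.33% to 1.503% of all FPKM in tumor CD45+ libraries, 0.00497% to 0.128% in splenic CD45+ libraries and 0.00235% to 0.00399% in splenic CD45- libraries. The tumor libraries were highest throughout, and splenic CD45+ replicate 2 was close to the CD45- libraries. C1qa made up 34.8% ± 0.808 of the sum in tumor CD45+ (SD, n = 4), 35.9% ± 2.15 in splenic CD45+ and 34.1% ± 1.22 in splenic CD45- libraries (SD, n = 3 each). C1qb made up 29.3% ± 1.46, 28.0% ± 1.52 and 29.7% ± 2.76 in the same groups and C1qc 35.9% ± 1.45, 36.1% ± 1.06 and 36.2% ± 2.23. For each chain the ranges of the 3 groups overlapped. FPKM of different transcripts carry their own length and mapping effects, so these shares are not a chain stoichiometry.

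**Figure D3:**
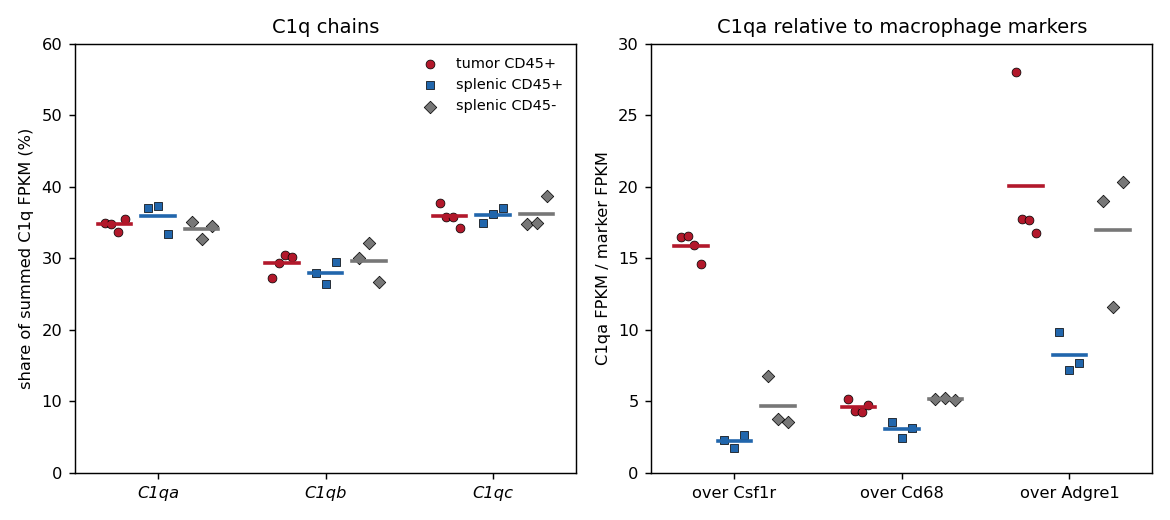
Left, share of summed C1q FPKM (%) from each chain in each library, and right, C1qa FPKM divided by the FPKM of the macrophage markers Csf1r, Cd68 and Adgre1, with a bar at each group mean (tumor CD45+ n = 4, splenic CD45+ n = 3, splenic CD45- n = 3). The chain shares overlap between groups, whereas C1qa over Csf1r lies at 14.6 to 16.5 in tumor CD45+ libraries and below 7 in the others.

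Set against macrophage markers, C1qa differed less between groups than its level did. C1qa was 14.6 to 16.5 times Csf1r, the macrophage growth factor receptor, in tumor CD45+ libraries, 1.74 to 2.68 times in splenic CD45+ and 3.58 to 6.76 times in splenic CD45- libraries. Against Cd68, an endosomal macrophage protein, the ratios were 4.25 to 5.17 in tumor CD45+, 2.47 to 3.59 in splenic CD45+ and 5.11 to 5.21 in splenic CD45- libraries. The C1qa to Cd68 ratio therefore overlapped between tumor CD45+ and splenic CD45- libraries, whose C1qa levels differed 321-fold in their means. Against Adgre1, which encodes F4/80, the ratios were 16.8 to 28.0 in tumor CD45+, 7.21 to 9.87 in splenic CD45+ and 11.6 to 20.4 in splenic CD45- libraries. In each of these 3 ratios every splenic CD45+ library was below every tumor CD45+ library. In splenic CD45- libraries Csf1r was at 2.59 to 3.07 FPKM, Cd68 at 1.89 to 3.70 and Adgre1 at 0.54 to 1.01. The ratios there rest on these low values. Against Lyz2, the lysozyme of macrophages and granulocytes, the ratios were 0.172 to 0.333 in tumor CD45+ and 0.0128 to 0.183 in splenic CD45+ libraries, which overlapped. In splenic CD45- libraries they were 0.360 to 0.468, above every library of the other groups.

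C5ar1 was at 0.256 to 0.282 of the integrin chain Itgam (CD11b) in tumor CD45+ libraries, 0.169 to 0.177 in splenic CD45+ libraries and 0.169 to 0.477 in splenic CD45- libraries, where both genes were low. C3 relative to Itgam was 0.0378 to 0.0772 in tumor CD45+ libraries, 0.636 to 0.778 in splenic CD45+ libraries and 0.651 to 1.02 in splenic CD45- libraries. The C3 to Itgam ratio thus overlapped between the splenic groups, and every tumor library was below them. Cfb, relative to its neighbour and paralog C2, was 14.3 to 15.5 in tumor CD45+ libraries and 1.11 to 1.90 in splenic CD45+ libraries. The Cfb level in this ratio counts its numbered copies. In splenic CD45+ libraries both were low, Cfb at 6.60, 0.14 and 0.80 FPKM and C2 at 3.48, 0.08 and 0.72 FPKM.

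Markers of other cell types moved with these differences, and their part in them was not tested. Of 12 monocyte and macrophage markers 10 were higher and 1 lower in tumor over splenic CD45+ cells. The summed FPKM of the 12 was 15124 to 32861 in tumor CD45+, 1389 to 3840 in splenic CD45+ and 37.1 to 69.2 in splenic CD45- libraries. Most of this sum was Lyz2, the lysozyme of macrophages and granulocytes. Its mean was 17721 of 21474 FPKM in tumor CD45+, 2364 of 2839 in splenic CD45+ and 34.3 of 48.6 in splenic CD45- libraries. Of 9 markers of red pulp and island macrophages 2 were higher and 3 lower, and their sum was 493 to 575 FPKM in tumor CD45+, 1124, 81.6 and 368 FPKM in splenic CD45+ and 42.7 to 54.05 FPKM in splenic CD45- libraries. Among the splenic CD45+ libraries this sum had the same order as the C1q chains, Cfp and Cfb, with replicate 1 highest and replicate 2 lowest. Ptprc and the sums of B cell, T and NK cell, dendritic cell and endothelial markers had that order too. All 11 granulocyte markers were lower in tumor, as C3 was. Their sum was 56.5 to 1756 FPKM in tumor CD45+ libraries, 23110 to 77508 FPKM in splenic CD45+ libraries and 390 to 524 FPKM in splenic CD45- libraries. All 7 B cell markers were lower too, at a sum of 4.36 to 7.28 FPKM in tumor CD45+, 143 to 1272 FPKM in splenic CD45+ and 24.6 to 31.2 FPKM in splenic CD45- libraries. For both lists the splenic CD45+ libraries stood highest. All 3 dendritic cell markers tested were lower in tumor, at a sum over the 6 listed of 1.17 to 2.85 FPKM in tumor CD45+, 6.17 to 43.4 FPKM in splenic CD45+ and 0.73 to 0.98 FPKM in splenic CD45- libraries. Of 7 T and NK cell markers 5 were lower, at a sum of 5.25 to 41.4 FPKM in tumor CD45+, 42.03 to 282 FPKM in splenic CD45+ and 4.42 to 6.23 FPKM in splenic CD45- libraries. Platelet markers were 2 higher and 2 lower of 4 tested. Their summed FPKM was 599 to 872 in tumor CD45+, 13.4 to 27.7 in splenic CD45+ and 34.1 to 37.1 in splenic CD45- libraries. Most of the tumor sum, a mean of 676 FPKM, was Pf4, a platelet chemokine, at 667 FPKM, against 1.15 FPKM in splenic CD45+ libraries. Ppbp was also higher, at 8.59 and 0.53 FPKM in tumor and splenic CD45+ libraries. Itga2b was lower, at 0.20 and 2.36 FPKM, as was Gp9, at 0.13 and 14.8 FPKM. Stromal markers summed to 143 to 199 FPKM in tumor CD45+, 0.34 to 0.92 FPKM in splenic CD45+ and 0.26 to 2.28 FPKM in splenic CD45- libraries. Epithelial markers summed to 312 to 406 FPKM in tumor CD45+, 0.39 to 2.84 FPKM in splenic CD45+ and 0.03 to 0.84 FPKM in splenic CD45- libraries, with 4 of the 7 under 1 FPKM in every tumor library. Both of these sums were far above the splenic levels in every tumor library. Erythroid markers were lower in tumor for all 10 listed, at a sum of 6001 to 40981 FPKM in tumor CD45+, 129490 to 276490 FPKM in splenic CD45+ and 326070 to 416640 FPKM in splenic CD45- libraries. Within the spleen all 8 macrophage markers tested, 11 granulocyte, 7 B cell and 7 T and NK cell markers were higher in CD45+ cells, and 9 of 10 erythroid markers were lower. Some markers of the lists counted here passed the filter through 1 group alone and could differ in that direction only. Between tumor and splenic CD45+ cells these were 1 granulocyte, 4 B cell, 2 T and NK cell, 2 dendritic cell, 2 red pulp and island macrophage, 2 platelet and 3 erythroid markers, and within the spleen 1 macrophage, 2 granulocyte, 2 B cell and 4 T and NK cell markers.

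Beyond the 8 genes, 53 other complement genes were listed, 49 had a value and 23 could be tested between tumor and splenic CD45+ cells. Of these, 12 (52.2%) were higher, 5 (21.7%) lower and 6 did not pass, with a median log2 change of 1.12. Over all genes tested 37.7% were higher and 26% lower, so the share of lower calls was near that of all genes. Of the 23, 9 passed the filter through 1 group alone and could differ in that direction only. C4b, Masp1, Clu, Vsig4 and Scarf1 could only be higher, and Fcnb, Cd46, C5ar2 and Cr2 could only be lower. Among the lower calls only Cd55 was free to go either way. Among classical and lectin pathway components 4 of 6 were higher and 1 lower. C4b, the C4 protein that C1s cleaves, was at 112 ± 26.1 FPKM in tumor (SD, n = 4) and 0.217 ± 0.268 FPKM in spleen (SD, n = 3), a log2 change of 6.52 (adjusted p = 6.77e-07 by limma), and 5.77 without numbered copies. Reads of its near-identical relative C4a cannot be kept apart from it with certainty. C1ra, the C1r protease that C1q carries, was at 18.3 and 0.667 FPKM in tumor and spleen (log2 3.55), C2 at 8.66 and 1.43 FPKM (log2 2.20) and Masp1, a lectin pathway protease, at 1.26 FPKM in tumor and 0 to 0.01 FPKM in spleen (log2 1.16). Fcnb, a ficolin of myeloid cells, was lower, at 0.225 FPKM in tumor and 59.6 FPKM in spleen (log2 -5.46, adjusted p = 2.23e-05 by limma). Fcna, the other ficolin, had 195, 93.9, 92.4 and 89.4 FPKM in tumor and 361, 14.9 and 115 FPKM in spleen and did not pass (log2 0.36, adjusted p = 0.755).

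Of 8 alternative pathway and terminal components other than Cfb and Cfp, 7 had a value and none reached the filter. C6 of the membrane attack complex had 0.03 to 0.07 FPKM in tumor CD45+ libraries and 23.1, 0.84 and 3.23 FPKM in splenic CD45+ libraries. Clu, clusterin, a fluid-phase regulator that blocks the attack complex, was higher in tumor, at 94.3 ± 15.3 FPKM in tumor and 0.613 ± 0.330 FPKM in spleen (SD, n = 4 and 3), a log2 change of 5.89 (adjusted p = 5.02e-07 by limma).

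Of the 4 membrane regulators tested none was higher in tumor by limma, also at an unadjusted p below 0.05, and 2 were lower. Cd55, decay-accelerating factor, which takes C3 convertases apart on the cell surface, had 0.70, 1.34, 1.36 and 1.29 FPKM in tumor CD45+ libraries and 49.1, 24.7 and 50.65 FPKM in splenic CD45+ libraries. The log2 change was -4.23 ± 0.28 (SE, adjusted p = 8.88e-06 by limma). Cd46 was at 0.215 and 1.62 FPKM in tumor and spleen (log2 -1.11, adjusted p = 4.76e-05 by limma). Cr1l (Crry), the main C3 convertase regulator of rodent cells, was at 64.2 ± 4.15 FPKM in tumor and 59.4 ± 2.94 FPKM in spleen (SD, n = 4 and 3), and did not pass, with a log2 change of 0.11 and a 95% interval of -0.19 to 0.41. Trimmed-mean scaling and median-ratio scaling both put it at -0.07, and without globin genes at -0.35 (adjusted p = 0.0330 by limma). Cd59a, an inhibitor of the attack complex, was at 8.51 and 6.71 FPKM and did not pass either (log2 0.33, interval -0.10 to 0.76).

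**Figure D4:**
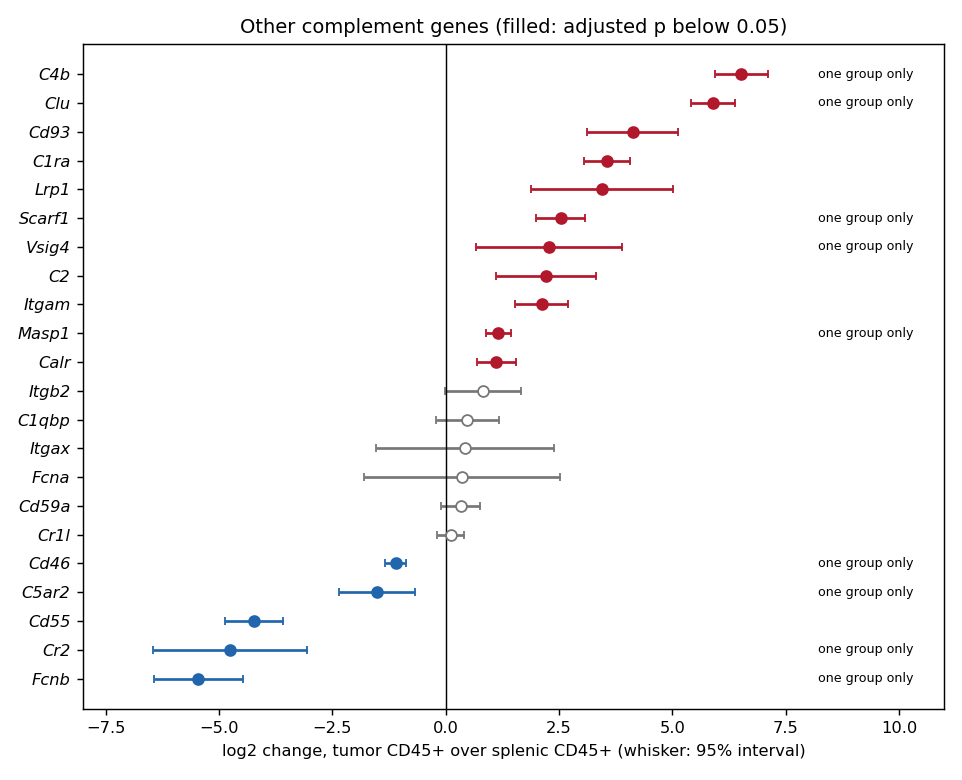
Log2 change, tumor CD45+ over splenic CD45+, of 22 of the 23 other complement genes that could be tested, with 95% intervals from limma and filled points for an adjusted p below 0.05 (red higher, blue lower); "one group only" marks genes that passed the filter through 1 group alone. C4b and Clu lie farthest to the right, at 6.52 and 5.89, and Fcnb, Cr2 and Cd55 farthest to the left, at -5.46, -4.76 and -4.23.

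Receptors and C1q-binding proteins were 6 higher and 2 lower of 11 tested. Higher were Cd93, a receptor linked to C1q-dependent phagocytosis (71.3 FPKM in tumor and 3.90 FPKM in spleen, log2 4.12), Lrp1, an endocytic receptor (94.2 and 12.7 FPKM, log2 3.45), Scarf1, a scavenger receptor that binds C1q (7.45 and 0.437 FPKM, log2 2.53), Itgam of complement receptor 3 (277 and 65.5 FPKM, log2 2.12) and calreticulin, Calr (624 and 290 FPKM, log2 1.12). Without splenic replicate 1 the change of Lrp1 was 4.37, and without replicate 2 it was 2.70. Vsig4, a macrophage receptor for C3b, had 26.2, 2.95, 2.74 and 2.54 FPKM in tumor CD45+ libraries and 0.41, 0.06 and 0.36 FPKM in splenic CD45+ libraries. Its log2 change of 2.28 (adjusted p = 0.0209 by limma) was 1.56 without tumor replicate 1, and its call was lost without splenic replicate 3 (adjusted p = 0.0569). Cr2, the C3d receptor of B cells, was lower, at 0.07, 0.01, 0 and 0 FPKM in tumor and 78.8, 5.50 and 39.5 FPKM in spleen (log2 -4.76, adjusted p = 8.50e-04 by limma). Its change was -3.99 without splenic replicate 1 and -5.80 without replicate 2. C5ar2, the second C5a receptor, was at 0.470 FPKM in tumor and 3.74 FPKM in spleen (log2 -1.51, adjusted p = 7.23e-03 by limma), the direction opposite to C5ar1, with -0.69 on its largest model alone, and it lost its call when tumor replicates 2 to 4 were averaged (0.0510).

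Within the spleen 15 of the 49 other genes could be tested, of which 9 were higher in CD45+ cells, none was lower and 6 did not pass by limma (median log2 1.66). The share called higher, 60%, stood near the 50.5% of all genes tested, and 2 of the 9, Itgam and Cd93, passed the filter through the CD45+ libraries alone and could only be higher. The 1 gene with a negative change at an unadjusted p below 0.05 was Cd59b, a relative of Cd59a, at 1.86 ± 1.99 FPKM in CD45+ and 4.00 ± 0.555 FPKM in CD45- cells (SD, n = 3 each; log2 -1.01, adjusted p = 0.0825). Itgam was at 65.5 ± 23.4 FPKM in CD45+ and 0.630 ± 0.213 FPKM in CD45- cells (SD, n = 3 each; log2 5.30), and its partner chain Itgb2 at 122 and 2.38 FPKM (log2 5.03). Fcnb was at 59.6 and 1.26 FPKM (log2 4.54), Cr2 at 41.3 and 0.797 FPKM (log2 3.96, or 3.20 without CD45+ replicate 1 and 5.003 without replicate 2) and Cd55 at 41.5 and 12.02 FPKM (log2 1.66). Cd55 missed the threshold with median-ratio scaling (adjusted p = 0.0671 by limma). Fcna (log2 3.15, adjusted p = 0.0278 by limma) lost its call without CD45+ replicate 1 or 3 (0.0574 and 0.0929), without any of the CD45- libraries (0.0629 to 0.0809) and with trimmed-mean or median-ratio scaling (0.0724 and 0.08995). Calr (log2 0.60, adjusted p = 0.0386 by limma) was at -0.02 under trimmed-mean scaling and -0.17 under median-ratio scaling, and C1qbp (log2 1.31) fell short of the threshold at 0.70 and 0.55 under the same scalings and was at -0.03 without numbered copies. Calr also lost its call without CD45+ replicate 1 (0.132) and without any of the CD45- libraries (0.103 to 0.122). The other call was for Cd93 (log2 1.94).

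Across the 10 libraries, the genes most like each member were named by Pearson correlation of log2(FPKM + 1) over 7979 genes averaging at least 5 FPKM. All points share the structure of 3 groups, so the values describe a pattern over groups more than one over libraries. Ckb and Zfp444 were among the 5 nearest genes of all 3 C1q chains (r from 0.997 to 0.999), as was Havcr2, the TIM-3 receptor, and Cd68 was among those of C1qa (r = 0.997). C3ar1 was nearest to Dab2 (r = 0.9998), an endocytic adaptor, with Stab1, a scavenger receptor, also among its 5. C5ar1 was nearest to Jdp2 (r = 0.999), Cfb to Phf11d (r = 0.999) and Cfp to Itm2c (r = 0.999), with the lysosomal protease Ctss also among the 5 of Cfp. C3 had a different set, Il18rap (r = 0.989), Ly6c1, Bid, Ly6c2 and Mmp9 (r = 0.984). Ly6c2, a marker of inflammatory monocytes, was the 1 monocyte marker that was lower in tumor, at 20.7 to 70.2 FPKM in tumor CD45+ and 74.1 to 339 FPKM in splenic CD45+ libraries.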

How the data were processed

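RNA was measured in 10 libraries of FACS-sorted cells, prepared by a sequencing company from TRIZOL extracts per the labels' protocols. The genome build named in the submitters' processing notes is GRCm38.p6, and for the kit, the use of strand, the aligner and the quantifier the sources used here give nothing. The authors deposited 1 table per library with values for 61685 RefSeq models and no named unit. These deposited values were taken to be FPKM because their sums differed between libraries (801072 to 1367791), while length-weighted sums over 23137 models of known length lay between 954355 and 1145434.

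Models were mapped to gene symbols through the RefSeq table of the same build, which gave 17603 genes from 60167 models, and values were summed per gene. The 1518 models without a symbol held 0.423% to 1.06% of the FPKM and entered no test. Of all models 1843 are numbered copies. Each comparison was fitted in R 4.3.3 with limma 3.58.1, on log2(FPKM + 1) and with a trend in the prior variance. A gene entered when at least 3 of the compared libraries reached 1 FPKM. Benjamini-Hochberg adjustment covered every gene tested, with a threshold of 0.05. Changes of low genes are understated on this scale. Alternatives covered the pseudocount, the filter, the scaling, the gene summary, the replicate block, the variance model and each library left out. Named genes were all 8 members, every called gene of a list of other complement genes with the most abundant of those not called, and the 5 genes most like each member. The result of 1 listed gene is not reported here. The members and lists were chosen with earlier results of these data known. Same-numbered libraries of compared groups correlated from -0.175 to 0.105 in their deviations from group means. Within the spleen they were at 0.105, 0.0677 and -0.0135, against -0.0963 to 0.05 for the other pairs. Correlations this weak over so few libraries cannot decide whether the numbers pair them. Software for tables and plots was matplotlib 3.10.9, scipy 1.17.1, pandas 2.3.3 and numpy 2.4.6 under Python 3.11.15.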

Additional observations from a re-analysis of the deposited data

Results flagged for a closer look

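Of 31 values examined in the 4 tumor CD45+ libraries, 11 had 1 library farther from the rest than the Dixon limit for 4 samples. In each case it was tumor CD45+ replicate 1. Chance flags about 1 in 20 such groups, and replicates 2 to 4 lay close together throughout. Of the complement genes followed here, Cfb was at 69.6 FPKM in replicate 1. It was lower than in the other tumor libraries, as were C2 (4.80 FPKM), C4b (72.7 FPKM), Clu (71.4 FPKM), Cd93 (56.1 FPKM), Calr (531 FPKM) and Cd55 (0.70 FPKM). Higher in replicate 1 were Vsig4 (26.2 FPKM), Fcnb (0.77 FPKM), Cr2 (0.07 FPKM) and the ratio of C1qa to Adgre1 (28.0). The same library had the highest granulocyte marker sum (1756 FPKM) and globin share (10.4%) of the tumor libraries, and their part was not tested.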

How the results depend on the processing

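All 8 calls between tumor and splenic CD45+ cells kept their direction and their side of the threshold in the 22 alternatives each, and so did C3, C5ar1 and Cfp within the spleen in their 19. With each library left out in turn, 7 members stayed higher and 1 lower in tumor. Within the spleen the count of members called higher, 3, was 5 with a pseudocount of 0.1 and 6 with a common sum, with one fit over all libraries and with the replicate block, and 3 to 6 with each library left out. The additions were C1q chains, whose adjusted p-values with the block were 0.00712, 0.0124 and 0.00839. The block joins libraries of the same number, and whether these belong together is not known. It changed no other member's call.

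Of the other complement genes, the count lower in tumor (5) was 10 with no filter and 3 with a filter of 5 FPKM. Within the spleen the count lower (0) was 2 with trimmed-mean and with median-ratio scaling, 1 without globin genes and with one fit, and 0 to 1 with each library left out, and the count higher (9) was 5 with median-ratio scaling. Over all genes, 2986 lower in tumor became 1975 with a common sum and 1865 with tumor replicates 2 to 4 averaged. Within the spleen 4912 higher became 2683 with a filter of 5 FPKM, 3156 with trimmed-mean and 2821 with median-ratio scaling. There 488 lower became 1735 with trimmed-mean, 2448 with median-ratio scaling, 121 with a common sum and 882 without globin genes, and 206 to 1422 with each library left out. The filters act by the number of genes tested, and the cause of the other shifts was not tested. Depth limits C3ar1, Cfb and C5ar1 in the spleen, where some libraries hold under 10 fragments. For C5ar1 these were the CD45- libraries, at about 9, 9 and 5 fragments.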
